A study of Rattus norvegicus with 12 samples.

Results

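The genes described here were 10 transcription factors grouped under vascular endothelium, Bcl6b and Bcl6, Ets1, Erg, Fli1, Sox7, Sox17, Sox18, Klf2 and Klf4, taken by symbol from a table of 34700 genes. Bcl6b was chosen by its level in BAIBA against HFE, and the other 9 were added under the same heading. Of these, Bcl6 is a relative of Bcl6b that is not particular to endothelium, and Ets1 also acts in lymphocytes. The values of BAIBA against HFE are therefore given as a description, with no test, and so are the other values of Bcl6b that hold its HFE or BAIBA libraries. The mRNA came from hearts of 12 male Sprague-Dawley rats, with 3 rats in each of 4 groups. In the Sham group the left anterior descending coronary artery was threaded and not tied, and in the HF, HFE and BAIBA groups it was ligated at 8 weeks of age. Sham and HF rats stayed sedentary. HFE rats with ligation ran on a treadmill for 60 min/day on 5 days/week over 8 weeks, and BAIBA rats with ligation received 75 mg/kg/day of β-aminoisobutyric acid, a small molecule that muscle releases during exercise, by gavage for 8 weeks. The methods describe water by gavage, in the volume of the BAIBA dose, for Sham and HF rats. They name no gavage for HFE rats, and the labels do not say which of the sequenced rats received water. The hearts were taken 12 weeks after surgery, from the anterior wall of the left ventricle. The methods name the area around the infarct for the BAIBA group alone, while another passage of the study names it for HF too. Where the site differed between groups, it and the treatment cannot be told apart. Ligation leaves a scar, whose size in each ligated heart is not given in the sources used here, and the wall contains many cell types.

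Endothelial cells line the vessels of the heart, and capillary cells among them lie beside nearly every cardiomyocyte. Their identity is kept by ETS factors (Ets1, Erg and Fli1), which bind short sites around GGAA, together with the SOXF factors (Sox7, Sox17 and Sox18), which act in arterial and lymphatic specification. Klf2 and Klf4 are induced in endothelium by laminar flow and restrain inflammatory and clotting genes. Bcl6 is a zinc finger repressor of germinal centre B cells, macrophages and other cells, and Bcl6b is its close relative, which is enriched in endothelium.

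RefSeq promoters (250 bases before to 50 after the start of the gene) were at hand for 3 of the 10 genes, and all of them are shown because each stands for a family of the set: Bcl6 for the BCL6 genes, Erg for the ETS genes and Klf4 for the KLF genes. Capitals mark the motif AGGAA or, on the other strand, TTCCT, a longer form of the GGAA site of ETS factors. Outside these letters the shorter GGAA also occurs in the Bcl6 and Erg windows, where it is neither marked nor counted.
Bcl6 (GRCr8, chr11:90358503-90358802, + strand): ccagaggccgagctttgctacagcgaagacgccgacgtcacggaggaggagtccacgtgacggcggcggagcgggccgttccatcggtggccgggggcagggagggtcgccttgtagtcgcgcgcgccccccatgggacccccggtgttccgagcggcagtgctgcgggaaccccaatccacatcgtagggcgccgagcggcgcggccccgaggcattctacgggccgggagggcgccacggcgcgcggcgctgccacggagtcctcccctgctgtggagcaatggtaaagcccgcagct
Erg (GRCr8, chr11:48251517-48251816, - strand): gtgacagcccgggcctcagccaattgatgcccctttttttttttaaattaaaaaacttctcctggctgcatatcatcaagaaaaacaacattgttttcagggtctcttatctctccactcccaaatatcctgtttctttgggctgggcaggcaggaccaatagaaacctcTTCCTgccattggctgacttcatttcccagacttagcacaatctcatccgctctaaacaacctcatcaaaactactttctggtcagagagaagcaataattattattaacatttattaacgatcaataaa
Klf4 (GRCr8, chr5:75078543-75078842, - strand): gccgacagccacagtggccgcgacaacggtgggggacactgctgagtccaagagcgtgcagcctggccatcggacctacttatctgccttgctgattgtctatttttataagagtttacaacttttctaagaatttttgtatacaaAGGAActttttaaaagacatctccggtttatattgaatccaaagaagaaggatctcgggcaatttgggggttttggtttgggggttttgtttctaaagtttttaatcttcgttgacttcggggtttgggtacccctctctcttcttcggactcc
Erg and Klf4 each held AGGAA or TTCCT 1 time, and Bcl6 held neither in this window. The same letters were present in 67.3% of 33469 promoters of the same length. A KLF core (CACCC or GGGTG) was in none of the windows of the 3 genes and in 54.9% of all promoters, and a BCL6 motif (TTCCTNGAA or, on the other strand, TTCNAGGAA), which can overlap AGGAA or TTCCT, was likewise in none of them and in 1.71% of all. These matches describe letters only.

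Each library held 14812541 to 19732588 counts. In all 12 rats the endothelial mRNA that the label of the set implies was present. VE-cadherin (Cdh5) lay between 126 and 248 CPM, the angiopoietin receptor family member Tie1 between 92.6 and 170 CPM, and von Willebrand factor (Vwf) between 99.5 and 346 CPM (library-scaled counts, normalised by TMM). The tight junction gene Cldn5 was listed at 0 in every rat and Robo4 at 0.128 to 1.84 CPM, although both mark endothelium. Pecam1 was not analysed here. Cardiomyocyte markers summed to 38651 to 47580 CPM, so endothelial transcripts were a small share of each library. In such whole tissue, fewer endothelial cells and less RNA per cell cannot be told apart. HF rat 1, HFE rat 3 and BAIBA rat 1 stood apart from their groups. BAIBA rat 1 had macrophage markers at a summed 259 CPM, against 73.2 to 195 CPM in the other rats. Its endothelial identity genes summed to 912 CPM, the lowest of the 12 rats. HF rat 1 had T-cell transcripts, with Cd3e at 35.9 CPM against 0.923 to 3.46 CPM in the other rats, and HFE rat 3 had immediate early genes at a summed 899.97 CPM against 136 to 299 CPM elsewhere.

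Ets1 had the highest median level per transcript length, at 34.7 FPKM (deposited fragments per kilobase of gene, scaled by library) over the 12 rats. It was followed by Klf2 at 27.2 FPKM, Klf4 at 22.3 FPKM and Fli1 at 18.6 FPKM. Bcl6b (13.98 FPKM), Sox18 (13.0 FPKM) and Erg (12.8 FPKM) formed a middle group, and Sox17 (7.51 FPKM), Sox7 (7.48 FPKM) and Bcl6 (5.27 FPKM) were lowest. Only 1 step of this order held in every rat, Erg above Sox17. Bcl6b was above Sox18 in 5 of 12 rats, Sox18 above Erg in 6 of 12 and Sox17 above Sox7 in 7 of 12, so these neighbours did not differ beyond their spread. Ets1 was above Klf2 in 8 of 12 rats, Klf2 above Klf4 in 10 and Klf4 above Fli1 in 11. Fli1 stood above Bcl6b in 8 rats, all but the 3 HFE rats and Sham rat 1, and Sox7 stood above Bcl6 in 10. The members also differed in how far they varied. The highest rat exceeded the lowest by 1.58-fold in CPM for Erg, 1.60-fold for Fli1 and 1.80-fold for Ets1, against 3.13-fold for Bcl6b, 3.62-fold for Bcl6, 4.49-fold for Klf4 and 6.71-fold for Klf2.

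Bcl6b (ENSRNOG00000059956) was measured at 53.8, 47.1 and 32.0 CPM in the 3 Sham rats and at 33.3, 52.9 and 47.6 CPM in the HF rats. The HFE rats had 84.2, 89.6 and 93.6 CPM, and the BAIBA rats 29.9, 34.6 and 30.5 CPM. All 3 HFE rats were thus above each of the other 9 rats, and the BAIBA rats lay within or just below the low end of the Sham and HF ranges. The group means were 44.3 ± 11.2 CPM (SD, n = 3) in Sham, 44.6 ± 10.2 in HF, 89.1 ± 4.70 in HFE and 31.7 ± 2.54 in BAIBA. The spread was narrow in the groups with the highest and lowest means and wide in Sham and HF. Between HF and Sham, the comparison of Bcl6b that its choice did not use, the log2 fold change was 0.00 ± 0.24 (SE, adjusted p = 0.9999 by edgeR's quasi-likelihood test), and the ranges overlapped fully. The log2 fold change was 1.00 ± 0.17 for HFE against HF and 1.01 ± 0.18 for HFE against Sham. It was -0.50 ± 0.17 for BAIBA against HF and -0.48 ± 0.18 for BAIBA against Sham, where the ranges overlapped. For BAIBA against HFE it was -1.49 ± 0.10. All of these values with HFE or BAIBA rest on the libraries by which the gene was chosen, and the comparisons share their control rats.

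**Figure D1:**
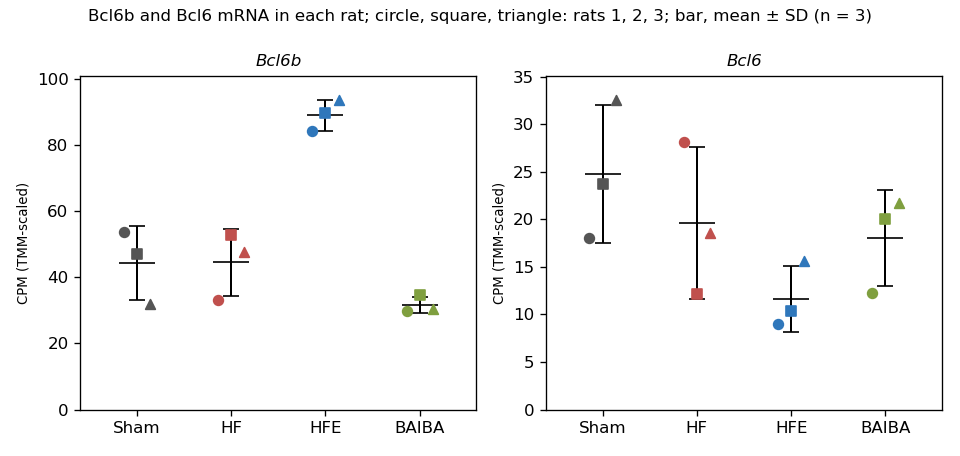
Bcl6b (left) and Bcl6 (right) in TMM-scaled CPM for each rat of the 4 groups, with the mean and SD as bars. Bcl6b sits at 84.2 to 93.6 CPM in HFE and at 53.8 CPM or less in all other rats, while Bcl6 is at 8.99 to 15.6 CPM in HFE and reaches 32.5 CPM in Sham.

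Endothelial identity genes did not all keep 1 level across the groups. Tie1 was at 137 to 153 CPM in HFE and at 92.6 to 120 CPM in BAIBA, while Cdh5 and Vwf overlapped between these groups. In BAIBA against HFE, 8 of the 13 tested were below zero and 5 above. In HFE against Sham, 4 of the 13 were higher and 1 lower at an unadjusted p under 0.05 by edgeR, against 11.2% of all genes. The part of endothelial content in the Bcl6b values was not tested. The mean log2 CPM of the 13 endothelial identity genes that were tested was 6.09 ± 0.08 (SD, n = 3) in Sham, 6.20 ± 0.24 in HF, 6.16 ± 0.13 in HFE and 6.04 ± 0.21 in BAIBA. Relative to that level in the same rat, Bcl6b was at -0.65 ± 0.46 on the log2 scale in Sham, -0.75 ± 0.16 in HF, 0.32 ± 0.08 in HFE and -1.06 ± 0.13 in BAIBA. The difference between HFE and HF was 1.07 on this scale and 1.00 without it, and that between BAIBA and HFE was -1.38 and -1.49. Between HFE and Sham it was 0.97 for Bcl6b and, in the other direction and larger, -1.15 for Bcl6. Among the other 9 members the difference of largest size between HFE and HF was -0.66, for Bcl6. In the deposited FPKM values Bcl6b was 13.4 ± 3.20 in Sham, 13.2 ± 2.62 in HF, 26.0 ± 0.71 in HFE and 9.59 ± 0.40 in BAIBA, again with HFE highest and BAIBA lowest. A long non-coding gene, LOC120095129, overlaps Bcl6b in the RefSeq annotation, and the sources used here do not say whether reads were counted by strand.

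Bcl6 (ENSRNOG00000001843), the founding repressor of the BCL6 family, had a pattern unlike that of Bcl6b. Its levels were 18.1, 23.7 and 32.5 CPM in Sham and 28.1, 12.1 and 18.6 CPM in HF. They were 8.99, 10.3 and 15.6 CPM in HFE and 12.3, 20.1 and 21.7 CPM in BAIBA. The HFE rats were all below the lowest Sham rat, and they overlapped the HF and BAIBA rats. HFE against Sham gave a log2 fold change of -1.08 ± 0.28, with an adjusted p = 0.296 by edgeR, so that Bcl6 was not called. DESeq2, the tool of the methods, gave -1.09 ± 0.27 with an adjusted p = 0.00853, and under it Bcl6 passed both thresholds and fell. Macrophage markers, from cells that also make Bcl6, went the same way in HFE against Sham, where all 7 were lower. Their summed level was 73.2 to 103 CPM in HFE against 128 to 149 CPM in Sham, with none of the 7 at 0. In BAIBA against Sham they went the other way, with all 7 above zero (median log2 fold change 0.31) and Bcl6 at -0.45. BAIBA rat 1 had the highest macrophage sum of the 12 rats (259 CPM) and the lowest Bcl6 of its group. The part of macrophages in the Bcl6 values was not tested.

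In the other comparisons the Bcl6 differences were within the scatter of the rats. The log2 fold change was -0.34 ± 0.33 for HF against Sham (adjusted p = 0.891 by edgeR), -0.76 ± 0.34 for HFE against HF (adjusted p = 0.648) and -0.45 ± 0.27 for BAIBA against Sham (adjusted p = 0.780). BAIBA against HF gave -0.13 ± 0.34 (adjusted p = 0.963) and turned to 0.23 without HF rat 1, the rat with T-cell transcripts and the highest Bcl6 of its group. Without that rat HFE against HF was -0.40. BAIBA against HFE was 0.63 ± 0.27, given as a description. Over the 12 rats Bcl6b and Bcl6 had a Pearson r of -0.65 (Spearman rho -0.60) in log2 CPM, and -0.60 after the group means were removed, with points that share their libraries.

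Of the 3 ETS factors, Ets1 was highest in HF, and Erg and Fli1 overlapped between all groups. Ets1 (ENSRNOG00000008941), which acts in endothelial growth and also in lymphocytes, had 151, 144 and 160 CPM in Sham and 248, 224 and 200.1 CPM in HF. HFE rats had 173, 196 and 177 CPM, and BAIBA rats 138, 194 and 172 CPM. The HF rats lay above all 9 other rats, and HFE lay above Sham without overlap. HF against Sham gave a log2 fold change of 0.56 ± 0.10, with an unadjusted p = 0.000722 and an adjusted p = 0.709 by edgeR. DESeq2 gave 0.56 ± 0.12 with an adjusted p = 0.00202, which still missed the fold threshold of 1. The highest HF rat was rat 1, the rat with T-cell transcripts, and without it the log2 fold change was 0.48. The log2 fold change of Ets1 was -0.30 ± 0.11 for HFE against HF (adjusted p = 0.627 by edgeR), -0.42 ± 0.15 for BAIBA against HF (adjusted p = 0.851) and 0.27 ± 0.08 for HFE against Sham (adjusted p = 0.320). For BAIBA against Sham it was 0.15 ± 0.13 (adjusted p = 0.851) with overlapping rats. Relative to the endothelial identity genes, Ets1 in HF exceeded Sham by 0.44 on the log2 scale.

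Erg (ENSRNOG00000001652) and Fli1 (ENSRNOG00000008904), closely related ETS factors that hold the endothelial program in place, were the steadiest members. Erg ranged from 27.2 to 30.2 CPM in Sham, 29.1 to 34.8 in HF, 28.9 to 34.6 in HFE and 22.1 to 33.6 in BAIBA. Fli1 ranged from 29.0 to 34.4 CPM in Sham, 31.6 to 35.3 in HF, 31.8 to 39.1 in HFE and 24.9 to 39.7 in BAIBA. The groups overlapped in all comparisons for both genes. The log2 fold changes of the 5 tested comparisons ran from -0.24 to 0.20 for Erg and from -0.05 to 0.16 for Fli1, and the lowest adjusted p by edgeR was 0.527 for Erg and 0.599 for Fli1. BAIBA rat 1 was the lowest of all 12 rats for Erg and Fli1, and likewise for Ets1, Sox7 and Sox18. The same rat had the lowest Cdh5 (126 CPM) and the highest summed macrophage markers (259 CPM), and the part of its cell makeup in these values was not tested.

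**Figure D2:**
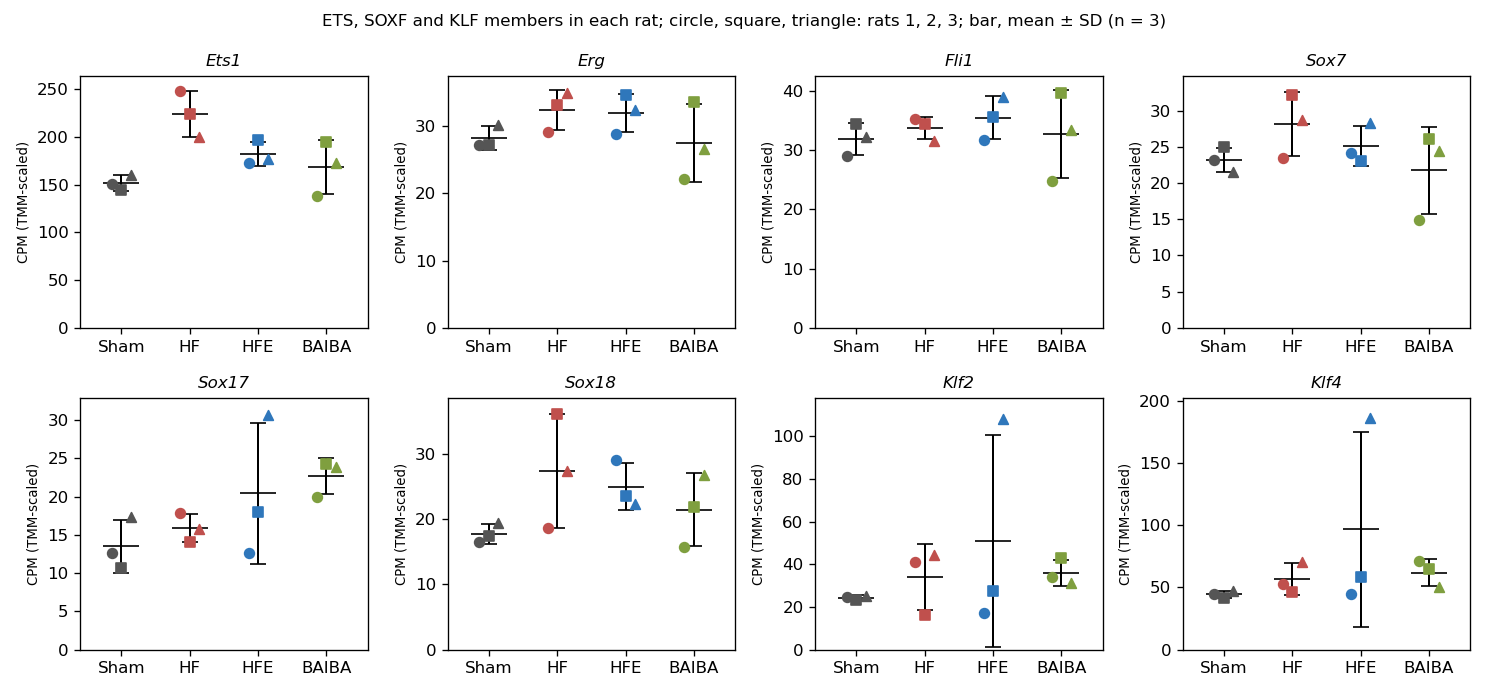
TMM-scaled CPM of the ETS, SOXF and KLF members in each rat of the 4 groups, with mean and SD bars. Ets1 reaches 200.1 CPM or more only in HF rats, Erg and Fli1 overlap in all groups, and the wide bars of Klf2 and Klf4 in HFE come with rat 3 at 108 and 187 CPM.

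Among the SOXF genes, Sox17 (ENSRNOG00000027357), a factor of arterial endothelium, was at 12.6, 10.6 and 17.3 CPM in Sham and at 17.8, 14.1 and 15.8 CPM in HF. It was at 12.6, 18.0 and 30.6 CPM in HFE and at 20.0, 24.2 and 23.9 CPM in BAIBA. Each BAIBA rat was above each Sham and HF rat, while the HFE rats were spread from 12.6 to 30.6 CPM and overlapped every other group. BAIBA against Sham gave a log2 fold change of 0.75 ± 0.19, with an unadjusted p = 0.00349 and an adjusted p = 0.420 by edgeR, and DESeq2 gave an adjusted p = 0.0748. BAIBA against HF gave 0.51 ± 0.14 (unadjusted p = 0.00698, adjusted p = 0.851 by edgeR). Relative to the endothelial identity genes, the BAIBA rats exceeded Sham by 0.81 and HF by 0.67 on the log2 scale. HFE against HF was 0.36 ± 0.31 (adjusted p = 0.777 by edgeR) and turned to -0.05 without HFE rat 3. HFE against Sham was 0.60 ± 0.36 (adjusted p = 0.575) and 0.19 without that rat. HF against Sham was 0.23 ± 0.19 (adjusted p = 0.862), and BAIBA against HFE was 0.15 ± 0.30 as a description.

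Sox18 (ENSRNOG00000016248), needed for lymphatic and blood vessel formation, had 16.5, 17.4 and 19.4 CPM in Sham and 18.6, 36.2 and 27.5 CPM in HF. HFE rats had 29.2, 23.5 and 22.4 CPM, and BAIBA rats 15.7, 21.9 and 26.9 CPM. The HFE rats were all above the Sham rats, and HF and BAIBA each overlapped Sham. The log2 fold change was 0.62 ± 0.23 for HF against Sham (adjusted p = 0.805 by edgeR), and it was 0.37 without HF rat 2. HFE against Sham was 0.50 ± 0.13 (unadjusted p = 0.00492, adjusted p = 0.292 by edgeR). The remaining comparisons of Sox18 had a log2 fold change of -0.13 ± 0.24 for HFE against HF, -0.35 ± 0.28 for BAIBA against HF and 0.28 ± 0.19 for BAIBA against Sham, and the lowest adjusted p among them was 0.794. Sox7 (ENSRNOG00000012049), which acts with Sox17 and Sox18 in vessel development, ranged from 21.5 to 24.9 CPM in Sham, 23.4 to 32.2 in HF, 23.0 to 28.2 in HFE and 14.8 to 26.0 in BAIBA. Its groups overlapped in all comparisons, and its log2 fold changes ran from -0.37 ± 0.22 for BAIBA against HF to 0.27 ± 0.14 for HF against Sham, with 0.717 as the lowest adjusted p by edgeR.

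Klf2 (ENSRNOG00000014205) and Klf4 (ENSRNOG00000016299), the flow-induced factors, varied most. Klf2 was at 24.5, 23.2 and 25.3 CPM in Sham, at 41.2, 16.1 and 44.2 CPM in HF, at 17.2, 27.3 and 108 CPM in HFE and at 33.9, 42.8 and 31.2 CPM in BAIBA. Klf4 was at 45.1, 41.6 and 47.0 CPM in Sham, at 52.6, 46.3 and 70.9 CPM in HF, at 44.8, 58.8 and 187 CPM in HFE and at 71.3, 64.8 and 50.1 CPM in BAIBA. The Sham rats were close together for both genes, and all BAIBA rats were above all Sham rats. A single rat, HFE rat 3, was far above its group for both. BAIBA against Sham gave log2 fold changes of 0.57 ± 0.13 for Klf2 (unadjusted p = 0.00268, adjusted p = 0.374 by edgeR) and 0.48 ± 0.14 for Klf4 (unadjusted p = 0.00792, adjusted p = 0.534 by edgeR). DESeq2 gave adjusted p values of 0.0969 and 0.225. Against HF, the BAIBA rats differed by 0.08 ± 0.36 in Klf2 and by 0.13 ± 0.19 in Klf4.

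The HFE values of Klf2 and Klf4 rested on rat 3. HFE against Sham gave log2 fold changes of 1.07 ± 0.76 for Klf2 (adjusted p = 0.656 by edgeR) and 1.12 ± 0.60 for Klf4 (adjusted p = 0.555), which became -0.12 and 0.23 without that rat. HFE against HF gave 0.59 ± 0.79 for Klf2 (adjusted p = 0.871) and 0.77 ± 0.59 for Klf4 (adjusted p = 0.750), which became -0.60 and -0.13. The description of BAIBA against HFE turned likewise, from -0.50 to 0.69 for Klf2 and from -0.64 to 0.26 for Klf4. The same rat had the highest level of Fos (51.9 CPM against 1.05 to 15.8 CPM in the other rats), Egr1 (269.9 against 9.20 to 91.9) and Atf3 (66.3 against 2.82 to 5.72), which are genes induced within minutes by stress, stretch or handling. None of the 8 immediate early genes was at 0 in any rat, and their part in the Klf2 and Klf4 values was not tested. HF against Sham was 0.47 ± 0.35 for Klf2 (adjusted p = 0.851 by edgeR) and 0.34 ± 0.16 for Klf4 (adjusted p = 0.805). Klf2 lies within the span of Eps15l1 in the RefSeq annotation, Klf4 overlaps LOC120103069, Ets1 overlaps LOC102552230 and Erg overlaps the pseudogene LOC120095800, so some reads at these loci could be counted for another gene.

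**Figure D3:**
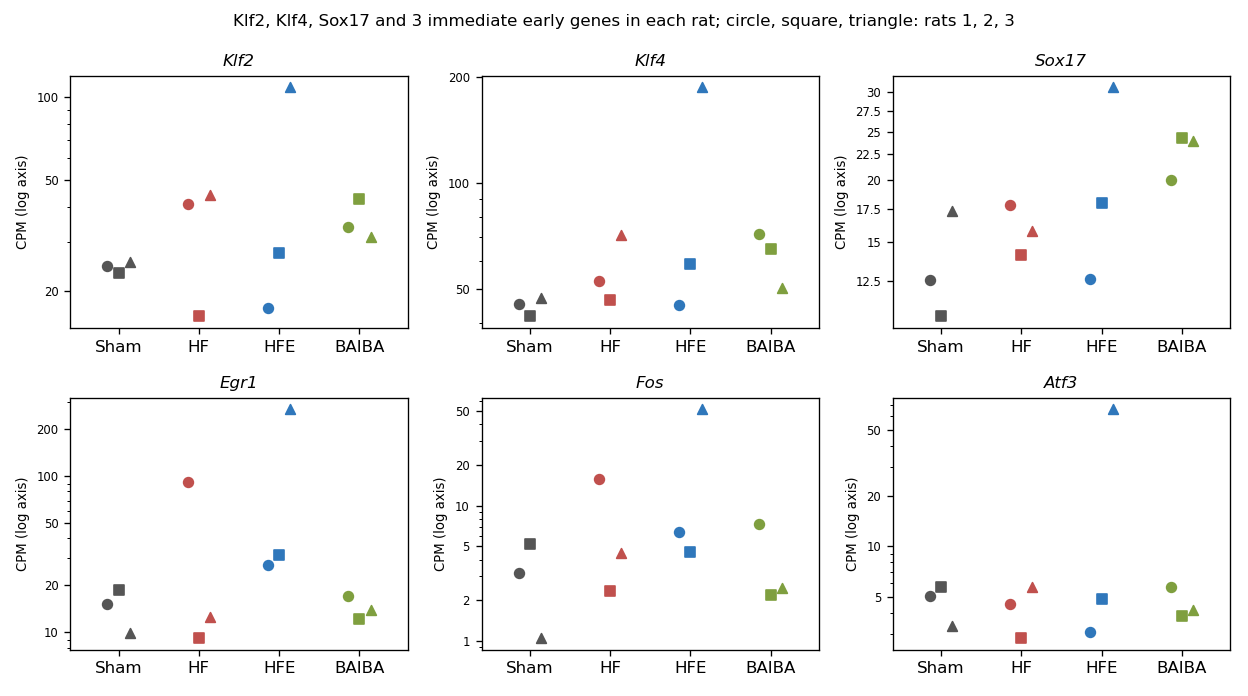
Klf2, Klf4 and Sox17 (top) with the immediate early genes Egr1, Fos and Atf3 (bottom) in each rat, in CPM on a log axis that differs between panels. HFE rat 3, the triangle in the third group, is the highest of the 12 rats in all 6 panels, with 108 CPM of Klf2, 187 CPM of Klf4 and 269.9 CPM of Egr1.

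Members of the same family did not all vary together over the rats. In log2 CPM over the 12 rats, Klf2 and Klf4 had a Pearson r of 0.90, and Sox17 had 0.77 with Klf2 and 0.75 with Klf4. Sox17 had only 0.02 with Sox18 and -0.05 with Sox7. Sox7 went with Sox18 (r = 0.69), Erg (r = 0.77) and Fli1 (r = 0.70), and Erg went with Fli1 (r = 0.72). With ranks in place of values, Erg had 0.45 with both Sox7 and Fli1, and Fli1 had 0.36 with Sox7. In ranks Klf2 and Klf4 had 0.88, and Sox17 had 0.74 with Klf2 and 0.82 with Klf4. Bcl6b had its highest r among the members with Erg, at 0.46. These are descriptions over libraries that differ in cell makeup, and 1 rat can carry a coefficient. BAIBA rat 1 was the lowest of the 12 rats for Erg, Fli1 and Sox7. HFE rat 3 was the highest for Klf2, Klf4 and Sox17.

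A gene was called where its adjusted p was under 0.05 and its absolute log2 fold change over 1. By edgeR, 0 of 10 members were called in HF against Sham, where 0% of 14957 genes were called, and 2 of 10, Ets1 and Sox18, had an unadjusted p under 0.05, against 6.00% of all genes. DESeq2 called 0 members and 0.154% of all genes there. In HFE against HF, 0 of the 9 members tested were called (0% of all genes), 1 of 9, Ets1, had an unadjusted p under 0.05 (7.62% of all genes), and DESeq2 called 0 (0.155% of all genes). In BAIBA against HF, 0 of 9 were called (0% of all genes) and 2 of 9, Ets1 and Sox17, had an unadjusted p under 0.05 (5.55% of all genes), with 0 by DESeq2 (0.181% of all genes). The 3 comparisons thus held no edgeR call of any gene. In HFE against Sham, 0 of 9 were called by edgeR (0% of all genes), and 3 of 9, Bcl6, Ets1 and Sox18, had an unadjusted p under 0.05, against 11.2% of all genes. DESeq2 called 1 of 9 there, Bcl6, against 0.467% of all genes. In BAIBA against Sham, 0 of 9 were called by edgeR (0.0402% of all genes), and 3 of 9, Sox17, Klf2 and Klf4, had an unadjusted p under 0.05 (7.41% of all genes), with 0 by DESeq2 (0.425% of all genes). In BAIBA against HFE, by which Bcl6b was chosen, 0.0808% of all genes were called by edgeR, and 0.216% with the replicate number as a block. With 3 rats in a group and members that share their cells, a count of 3 of 9 beside these backgrounds is a description.

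The median log2 fold change of the members was 0.25 for HF against Sham over all 10, with 9 above zero and 1 below, while the median over all genes was 0.01. Over the 9 members without Bcl6b it was -0.02 for HFE against HF, -0.13 for BAIBA against HF, 0.27 for HFE against Sham and 0.15 for BAIBA against Sham, with 4, 3, 8 and 6 of 9 above zero, against medians between -0.01 and 0.01 over all genes. The endothelial identity genes had medians of 0.17, -0.07, -0.15, 0.13 and 0.01 in the same order of comparisons. The medians of the members and of the endothelial identity genes lay on the same side of zero in each of these comparisons, while single members went both ways. The member median in HFE against HF (-0.02) and the identity gene median in BAIBA against Sham (0.01) were close to those of all genes. The side of zero therefore says little in these comparisons.

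**Figure D4:**
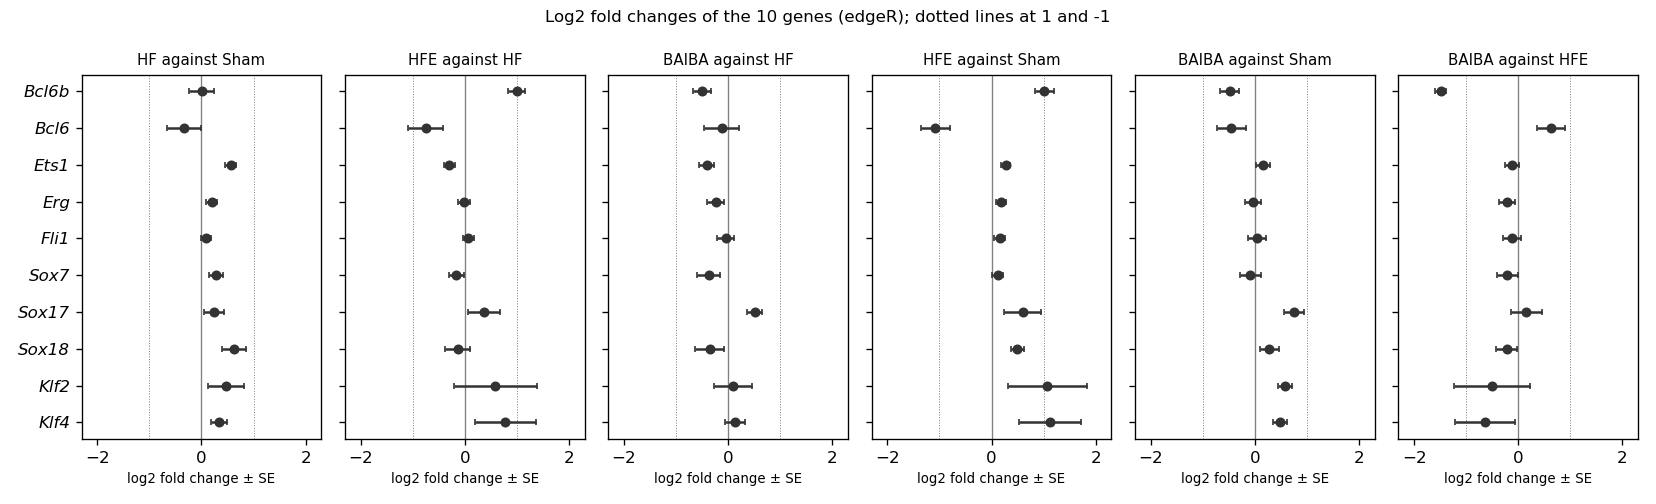
Log2 fold change with its standard error for each of the 10 genes in the 6 comparisons, first group against second, from the edgeR fits, with dotted lines at 1 and -1. Bcl6b lies at 1.00 and 1.01 in the comparisons of HFE with HF and Sham and at -1.49 in BAIBA against HFE, which chose it, and Klf2 and Klf4 have the widest errors wherever HFE enters.

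Other transcription factors of endothelium gave 0 calls by edgeR in each of the 5 tested comparisons, with 23 or 24 of 25 tested. The counts with an unadjusted p under 0.05 were 5 in HF against Sham, 1 in HFE against HF, 2 in BAIBA against HF, 4 in HFE against Sham and 5 in BAIBA against Sham, and DESeq2 called none of them. Over all genes the shares under that p were 6.00%, 7.62%, 5.55%, 11.2% and 7.41% in the same order. Id1, a target of BMP signalling, was higher in BAIBA than in Sham by 0.64 ± 0.13 on the log2 scale (adjusted p = 0.279 by edgeR). Foxf1, a factor of capillary and mesenchymal cells, differed by 1.54 ± 0.68 (adjusted p = 0.680), a value that rested on BAIBA rat 1, with 5.02 CPM against 1.03 and 1.35 CPM in the others and 0.460 to 1.23 CPM in Sham. In HFE against Sham, the values of largest size were 0.87 ± 0.52 for Id1 and -0.62 ± 0.20 for Foxc1, and neither passed the test. Id1 was at 113 CPM in HFE rat 3 against 32.8 and 40.7 CPM in the other HFE rats and 31.6 to 38.3 CPM in Sham.

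Notch pathway and arterial genes, which act downstream of the ETS and SOXF factors in arteries, were likewise 0 of 10 called by edgeR and DESeq2 in each tested comparison. In HFE against Sham 9 of 10 were above zero, with a median of 0.21 on the log2 scale. Of the 10, 3 had an unadjusted p under 0.05 by edgeR, against 11.2% of all genes. The netrin receptor Unc5b had 0.45 ± 0.11 there (adjusted p = 0.263 by edgeR) and -0.44 ± 0.13 in BAIBA against HF (adjusted p = 0.851). Genes that respond to flow and cytokines, among them targets of Klf2 and Klf4, gave no edgeR call in any tested comparison. An unadjusted p under 0.05 was reached by 2 of them in each comparison except BAIBA against Sham, where it was 0, and DESeq2 called 1, in HFE against Sham. Over all genes between 5.55% and 11.2% reached that p in the tested comparisons, and DESeq2 called 0.467% in HFE against Sham. The 2 largest values in HFE against HF were -2.15 ± 0.59 for endothelin (Edn1, adjusted p = 0.627) and 1.26 ± 0.30 for the chemokine Ccl2 (adjusted p = 0.627). Edn1 was low, at 0.0692 to 0.380 CPM in HFE and 0.688 to 1.38 CPM in HF. The adhesion molecule Vcam1 was at 5.13 to 5.54 CPM in HFE against 7.42 to 15.0 CPM in Sham (adjusted p = 0.268 by edgeR).

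Corepressors and target genes of BCL6 gave no call by edgeR or DESeq2, with 11 of 11 tested. An unadjusted p under 0.05 was reached by 1 in BAIBA against HF (5.55% of all genes) and 1 in BAIBA against Sham (7.41% of all genes). In the other comparisons it was 0. All 11 were below zero in BAIBA against HF, with a median of -0.13 on the log2 scale, against -0.01 over all genes. Other lists moved as far in BAIBA against HF. Of the endothelial identity genes 11 of 13 were below zero (median -0.15), and of the other ETS genes 10 of 13 (median -0.20). The other endothelial transcription factors went the other way, with 14 of 23 above zero and a median of 0.08. The cyclin Ccnd2, which BCL6 represses in B cells, had -0.59 ± 0.16 there (unadjusted p = 0.00659, adjusted p = 0.851 by edgeR). In HFE against Sham, the comparison with the lowest Bcl6, 5 of 11 were above zero and the median was 0.00. The other ETS genes (13 tested) and other KLF genes (10 tested) were not called by edgeR or DESeq2 either, with medians between -0.29 and 0.16 on the log2 scale. Klf10, a factor induced by TGF-beta, was the KLF gene of largest difference in HF against Sham, at 0.91 ± 0.31 (adjusted p = 0.805), and in HFE against HF, at -0.89 ± 0.29 (adjusted p = 0.627), with 27.7 and 30.8 CPM in HF rats 2 and 3 and at most 16.8 CPM in every other rat.

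Markers of other cell types gave no edgeR call in the tested comparisons, and DESeq2 called lymphatic genes alone. The lymphatic endothelial markers, a cell type in which Sox18 acts, had a median log2 fold change of 1.13 in BAIBA against Sham. There 5 of 5 had an unadjusted p under 0.05 by edgeR, 4 higher and Prox1 lower, against 7.41% of all genes. DESeq2 called 2 of the 5, against 0.425% of all genes. Pdpn had 33.0 CPM in BAIBA rat 1 against 5.20 and 9.17 CPM in the other BAIBA rats, and Lyve1 76.4 CPM against 32.8 and 37.7. Fibroblast markers were below zero in 7 of 8 for HF against Sham and above zero in 8 of 8 for BAIBA against HF, where Postn had 1.15 ± 0.98 (adjusted p = 0.882 by edgeR). That value rested on BAIBA rat 1, with 40.3 CPM of Postn against 2.50 and 10.5 CPM in the other BAIBA rats and 4.99 to 12.5 CPM in HF. In HFE against Sham all 8 fibroblast markers were below zero, 4 of them at an unadjusted p under 0.05 by edgeR. At that p, 6 of 7 macrophage markers were lower there, and of 8 cardiomyocyte markers 5 were higher and 1 lower (11.2% of all genes). In HFE against HF, 5 of 8 cardiomyocyte markers were higher and 2 of 7 macrophage markers lower at that p (7.62% of all genes). The part of these cells in the values of the members was not tested.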

How the data were processed

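Heart mRNA of 12 rats was sequenced as paired-end oligo(dT) libraries. The authors trimmed adapters and low-quality reads, aligned with HISAT2, assembled with StringTie and counted reads per gene with featureCounts. The submitters' processing notes name mm9, a mouse build, while the gene identifiers are rat Ensembl identifiers; versions and the strand setting of the counting are not given in the sources used here. The deposited values are raw counts per gene, and FPKM that the authors computed from those counts and gene lengths. Of 34700 genes, 32623 had an Ensembl identifier.

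Counts were analysed with edgeR 4.0.16 in R 4.3.3 (TMM, filterByExpr, robust quasi-likelihood test, Benjamini-Hochberg adjustment over all genes), with each pair of groups fitted alone, and all 10 genes passed the filter on low counts in each comparison. Calls needed an adjusted p below 0.05 and a log2 fold change beyond 1 in size. Standard errors were derived from the fold change and the F statistic of the fit. DESeq2 1.42.0, RLE or library size scaling, other filters, 1 fit of all 12 rats, a replicate block and leaving out each rat were alternatives. The edgeR script was tested on simulated data. FPKM was used for levels between genes and, for Bcl6b, also to give its group levels on a further scale from the same reads. Levels relative to endothelial genes and correlations used log2(CPM + 0.1), and genes most like Bcl6b were ranked by Pearson r among genes with a mean CPM of at least 1. Replicate libraries differed beyond sampling noise (chi-square per degree of freedom 11.8 to 33.7), so none was a copy of another. The p-values measure the spread between these rats.

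The labels number the rats 1 to 3 in each group. Deviations of same-numbered rats correlated over 0.1 in each pair for BAIBA against HFE (r = 0.17, 0.22 and 0.12). The labels name no pairs, and whether these rats were paired is not known. The values of that comparison come from the fit without a block, unless the block is named. The members and gene lists were chosen with earlier results of these data known. The named list genes are those with the 2 largest absolute log2 fold changes in a list and comparison, plus Cdh5, Tie1 and Vwf; Cldn5, Robo4, Lyve1, Prox1 and the immediate early and T-cell genes named per rat were taken for their levels. Overlaps and neighbours are from RefSeq GRCr8, used for names only, and promoter sequences are from RefSeq GRCr8.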

Additional observations from a re-analysis of the deposited data

How the results depend on the processing

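Of 780 log2 fold changes of the 10 genes under alternatives, 755 counted as unchanged. The tested values among them kept their direction and side of the thresholds. Values without a test moved by less than 1 SD, also across zero. These were BAIBA against HFE, and Bcl6b in each comparison with HFE or BAIBA. Of the tested values 22 turned sign and 1 passed the thresholds, and 2 moved further in BAIBA against HFE. With 1 rat left out, Bcl6b ran from 0.83 to 1.14 for HFE against HF. For HFE against Sham it ran from 0.83 to 1.17, so both lay on either side of 1. With DESeq2 the members called in HFE against Sham rose from 0 to 1, Bcl6 with -1.09 (adjusted p = 0.00853), against an adjusted p of 0.155 to 0.493 under the other alternatives of that comparison. DESeq2 also called 1 flow gene and 1 lymphatic gene in HFE against Sham and 2 lymphatic genes in BAIBA against Sham, where edgeR called none. Library size scaling turned Bcl6b in HF against Sham from 0.0046 to -0.014.

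The other sign changes of tested values came with 1 rat left out, and the log2 fold changes then ran as follows. In HF against Sham, Bcl6b ran from -0.17 to 0.18. In HFE against HF, Erg ran from -0.088 to 0.050, Fli1 from -0.0026 to 0.14, Sox17 from -0.052 to 0.61, Sox18 from -0.35 to 0.12, Klf2 from -0.60 to 1.00 and Klf4 from -0.13 to 1.12. In BAIBA against HF, Bcl6 ran from -0.38 to 0.23, Fli1 from -0.21 to 0.12 and Klf2 from -0.25 to 0.33. In HFE against Sham, Klf2 ran from -0.12 to 1.48. In BAIBA against Sham, Erg ran from -0.22 to 0.10, Fli1 from -0.13 to 0.20 and Sox7 from -0.25 to 0.12. In BAIBA against HFE, Klf2 ran from -0.91 to 0.69 and Klf4 from -0.98 to 0.26, with the highest value of each without HFE rat 3 (-0.50 and -0.64 with all rats). Ets1 (-0.23 to 0.0047), Fli1 (-0.28 to 0.041), Sox7 (-0.36 to 0.00059) and Sox17 (-0.099 to 0.56) also crossed zero there. Beyond the rats named in the report, the cause was not tested. The Bcl6b difference of BAIBA against HFE ran only from -1.56 to -1.46.

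The replicate number was also used as a block in the other 5 comparisons, where deviations of same-numbered rats had r from -0.08 to 0.12. The block changed no call of a member, and over all genes the calls went from 0 to 1 in HFE against Sham and from 6 to 9 in BAIBA against Sham. Over all genes DESeq2 called 24, 22, 31 and 72 where edgeR called 0 (HF against Sham, HFE against HF, BAIBA against HF and HFE against Sham), 78 against 6 in BAIBA against Sham and 171 against 12 in BAIBA against HFE. One fit of all 12 rats called 1 in BAIBA against HF, 0 in BAIBA against Sham and 3 in BAIBA against HFE, and library size scaling called 7 in the last. In BAIBA against HFE, the block raised the genes called from 12 to 32 and left Bcl6b at -1.49. Of the 5 genes most like Bcl6b, 3 remained among the 5 highest with Spearman's rho and 0 after the group means were removed. With 3 rats a group, members with an absolute log2 fold change under 1 could not be called by the rule.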

Other observations

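The genes whose levels were most like Bcl6b over the 12 rats, of 12956 ranked, were Etfb (Pearson r = 0.92), RGD1311251 (0.91), Myo18a (0.90), Adgrl2 (0.90) and Itga6 (0.90). Etfb, a subunit of the electron transfer flavoprotein of fatty acid oxidation, was at 277 to 321 CPM in HFE and at 204 to 258 CPM in all other rats. Itga6, an integrin subunit that binds laminin, was at 182 to 191 CPM in HFE, 94.1 to 144 CPM in BAIBA and 118 to 169 CPM in Sham and HF. RGD1311251 was low, at 2.28 to 2.53 CPM in HFE and 0.502 to 2.09 CPM elsewhere. The order was made with the HFE and BAIBA values that chose Bcl6b. After the group means were removed, 0 of the 5 genes stayed among the 5 highest. Their r was then 0.88 for Adgrl2, 0.87 for Myo18a, 0.74 for RGD1311251, 0.73 for Itga6 and 0.48 for Etfb.

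The next gene in that order was Slc16a13 (r = 0.89, rank 6), a monocarboxylate transporter gene that neighbours Bcl6b in the RefSeq annotation. It was looked at after its values were seen. Slc16a13 was at 4.13 to 4.56 CPM in HFE, at 2.56 to 3.25 CPM in Sham and HF and at 1.87 to 3.27 CPM in BAIBA, and the HFE rats did not overlap the others. The gene beyond it on the same side, Slc16a11, was at 3.88 to 4.43 CPM in HFE and at 1.67 to 2.83 CPM in BAIBA, and its Sham and HF values (1.96 to 4.17 CPM) reached those of HFE (r = 0.71, rank 183). Rnasek and Alox12, on the other side, had r of 0.04 and 0.01 with Bcl6b. Clec10a, a lectin of macrophages, had -0.40. All of these transcripts were low beside Bcl6b, and whether reads of 1 transcript were counted for its neighbour was not tested.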
